A study of Mus musculus with 18 samples.

Results

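The genes described here are 10 members of the AP-1, Batf and Bach families, namely Fos, Fosb, Fosl2, Jun, Junb, Jund, Batf, Batf3, Bach1 and Bach2. They were chosen by symbol, and all 10 are among the 15402 genes of the deposited table. RNA-seq was performed on 18 libraries from 6 sorted CD4+ T-cell populations of draining lymph nodes, 5 days after 3% oxazolone, a contact sensitiser, had been put on the abdominal skin of female mice. All mice were C57/BL6 animals that carried the Foxp3Timer and Foxp3-IRES-GFP reporters, so every population shares both reporter alleles, and each replicate was a pool of 3 mice. The Timer protein is made when Foxp3, the lineage factor of regulatory T cells (Treg), is transcribed, and it turns from a blue into a long-lived red form. Timer-negative cells were sorted as CD44lo (Tnaive) or CD44hi (Teff), and Timer+ cells by their Blue and Red fluorescence as Pers1 (intermediate Blue with low Red), Pers2 (high in both), PAt (low Blue with high Red) and Arrested (no Blue with intermediate Red), with 3 libraries each. GEO's subset labels describe these 4 gates as de novo (Pers1), maturing (Pers2), mature (PAt) and decaying (Arrested) Foxp3 expressers. Vehicle-treated mice were not analysed here, so all comparisons are between cells of sensitised animals.

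AP-1 is a family of dimers of basic leucine zipper proteins that bind DNA downstream of T-cell receptor and MAP kinase signals. Fos proteins pair with Jun proteins, and the genes of several of them are immediate early genes, whose RNA appears within minutes of a stimulus and is short-lived. Batf and Batf3 lack the transactivation domain of Fos, pair with Jun proteins and, with Irf4, bind composite DNA elements in activated lymphocytes. Bach1 and Bach2 pair with small Maf proteins and repress transcription, and Bach2 is known in T cells for restraining effector genes.

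Values are given as log2 of normalised read counts, as deposited. A gene was called changed where its log2 fold change exceeded 1 in size and its adjusted p was below 0.05, which are the study's thresholds, in a limma model over all 18 libraries. Batf3 fell under the filter on low values (a mean log2 value of at least 3), so 9 of the 10 members were tested among 13190 genes. The libraries held CD4+ T-cell markers at like summed levels, between 16.99 and 17.43 on the log2 scale for 7 such genes in all 18. Cd4 itself was 15.66 to 15.70 in Teff and 14.47 to 15.09 in the other libraries. It was called lower in PAt and Arrested than in Teff cells (-1.08). Markers of other cells were higher in Teff libraries than in any other library, at summed levels of 12.68 to 13.21 for B cells, 10.89 to 11.19 for macrophages or monocytes, 10.34 to 10.61 for conventional dendritic cells, 12.27 to 12.72 for plasmacytoid dendritic cells and at least 11.51 for CD8 T cells. The summed level of NK-cell markers was 8.97 to 9.42 in Tnaive and Teff and 7.20 to 7.69 in Timer+ libraries. The single markers differed, as Eomes alone was 9.02 to 9.33 in Tnaive and 7.76 to 7.98 in Teff libraries. Klrb1c was 4.72 to 4.90 in Tnaive, 7.96 to 8.04 in Teff and 5.29 to 6.54 in Timer+ libraries. In such bulk samples, fewer cells with a transcript and less of it per cell cannot be told apart.

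Pers1 and Pers2, called persistent below, were compared with PAt and Arrested cells, and the members changed in opposite directions. Fos, Fosb, Jun and Bach2 were called lower and Batf higher in persistent cells, 5 of the 9 tested members, where 7.51% of all 13190 genes were called. By direction, 2.77% of all genes were called lower and 4.74% higher. Junb fell short of the fold-change threshold, and Fosl2, Jund and Bach1 were not called. The median log2 fold change over the 9 members was -0.99, against -0.01 over all tested genes. Counted from the largest decrease among the 13190 genes, Bach2 ranked 26, Jun 27, Fosb 84 and Fos 103, and Batf ranked 408 from the largest increase. Other measures moved with this comparison, and their part in it was not tested. The summed level of 2 CD8 T-cell markers was 9.65 to 10.18 in persistent and 10.41 to 10.70 in PAt and Arrested libraries, with Cd8a called lower (-1.16). That of 5 plasmacytoid dendritic cell markers was 10.60 to 11.11 against 11.13 to 11.33, with 1 of 5, Ccr9, called lower (-2.11). Bst2 had the highest values of these 5, at 10.34 to 10.89 against 10.57 to 10.91. Siglech overlapped, at 3.53 to 4.54 against 3.58 to 4.57. Of the B-cell markers, 3 of 6 were called lower. Of 5 macrophage or monocyte markers, 1, Itgam, was called higher (2.05) and 0 lower. No conventional dendritic cell or NK-cell marker was called. Heat shock genes can respond to tissue handling. Of these, Hspa1a, Hspa1b and Dnajb1 were lower in persistent cells within each replicate number. Hsph1, Hspa8, Hsp90aa1 and Hsp90ab1 were higher within each, and the values are given further below.

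**Figure D1:**
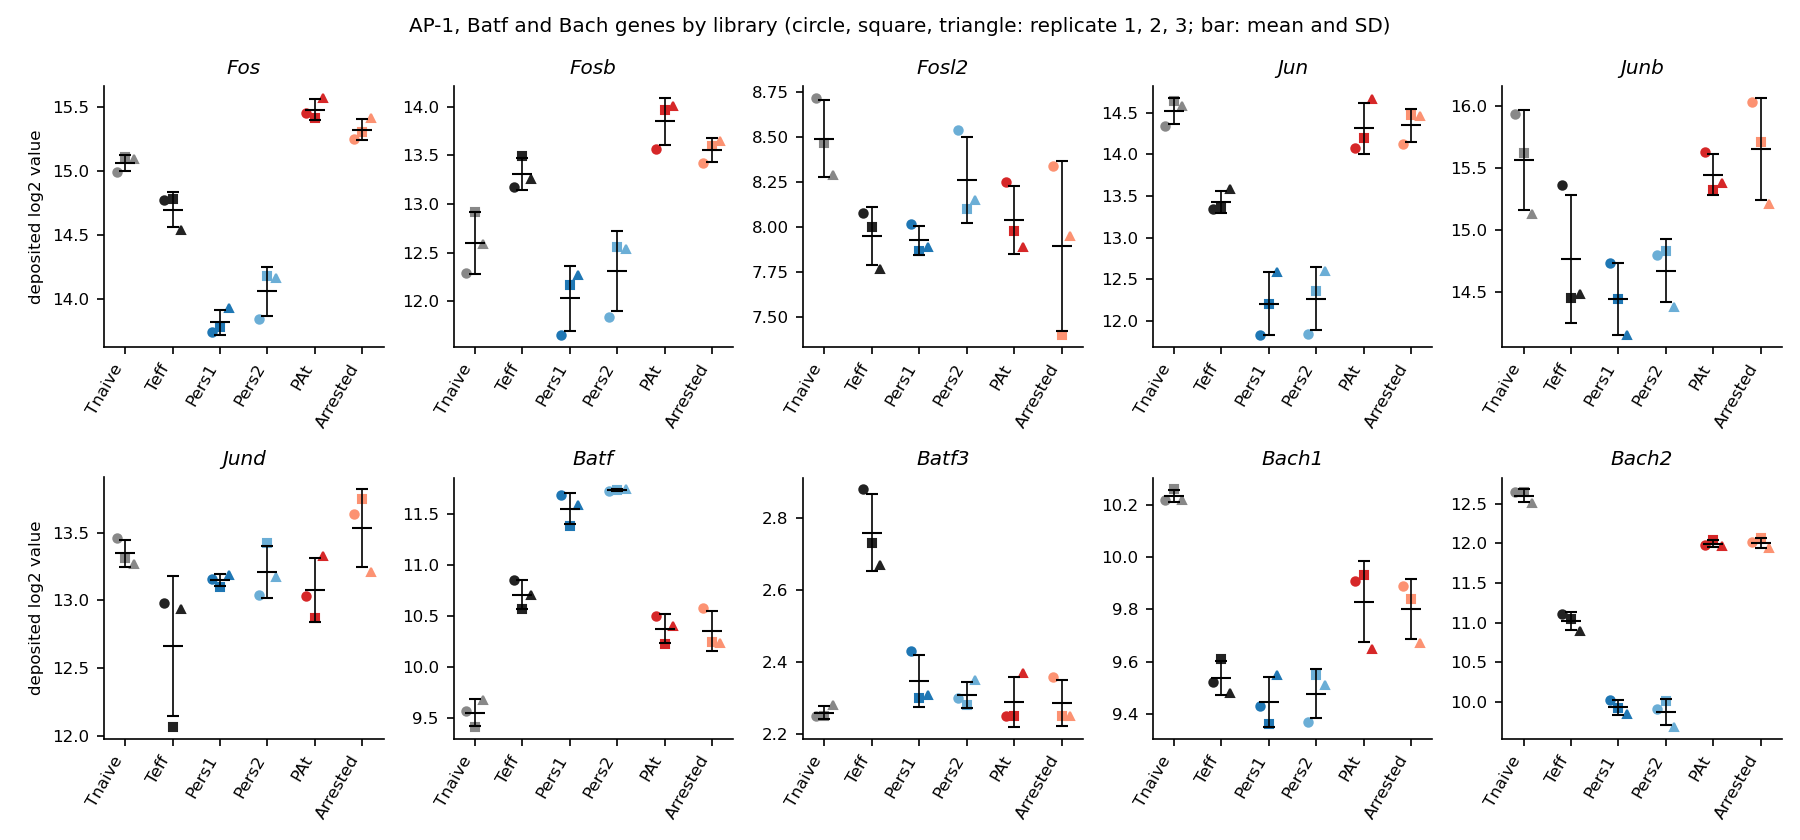
Deposited log2 value (y axis, scaled per gene) of each of the 10 genes in the 18 libraries, by population (x axis). Circles, squares and triangles are replicates 1, 2 and 3, and black bars give the mean and SD of 3 libraries. Fos, Fosb, Jun and Bach2 were lower, and Batf higher, in every Pers1 and Pers2 library than in any PAt or Arrested library.

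Fos, Fosb, Jun and Junb lay below PAt and Arrested levels in all 6 persistent libraries, as did Bach1, Bach2 and 21.8% of all genes. For the former, which belong to the Fos and Jun families, the bases just before the start sites are shown. They are the 150 bases upstream of each RefSeq start (GRCm38.p6), 5′ to 3′ on the gene's strand, with every match to a searched motif in capitals. The windows are chr12:85473740-85473889 (plus strand, Fos), chr7:19310046-19310195 (minus, Fosb), chr4:95052223-95052372 (minus, Jun) and chr8:84978749-84978898 (minus, Junb).
Fos: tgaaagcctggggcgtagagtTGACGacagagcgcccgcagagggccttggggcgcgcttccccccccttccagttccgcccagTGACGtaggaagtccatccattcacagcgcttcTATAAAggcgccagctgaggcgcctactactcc
Fosb: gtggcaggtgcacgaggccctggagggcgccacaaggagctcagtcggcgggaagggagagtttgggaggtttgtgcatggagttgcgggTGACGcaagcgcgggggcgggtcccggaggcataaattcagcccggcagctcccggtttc
Jun: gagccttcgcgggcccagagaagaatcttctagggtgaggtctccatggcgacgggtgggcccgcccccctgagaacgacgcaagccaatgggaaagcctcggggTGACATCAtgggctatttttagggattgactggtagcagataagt
Junb: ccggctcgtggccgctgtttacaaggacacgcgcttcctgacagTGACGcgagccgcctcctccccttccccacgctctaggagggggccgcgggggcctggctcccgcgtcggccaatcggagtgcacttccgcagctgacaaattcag

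All 10 members were found among the 32851 RefSeq promoters, and the 250 bases before the start were searched on both strands for 6 motifs. TGACG, the core of a cAMP response element, occurred in Fos at positions -129 and -66 from the start site, in Fosb at -60, in Junb at -106 and in Batf at -98, while 17.8% of all promoters hold it. TGACATCA, a variant of the AP-1 site, occurred in Jun from -45 to -38 and is held by 2.93% of promoters. TATAAA occurred in Fos from -33 to -28 and is held by 12.4%. No member had a match to the others, namely the AP-1 site TGACTCA (4.46% of promoters), the full element TGACGTCA, which contains TGACG (1.55%), and the CArG box bound by serum response factor (1.47%). Sites further upstream than 250 bases were not searched, so the lack of a match holds for that window only. These matches are descriptions of letters, and the libraries do not measure binding.

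Fos lies on chromosome 12 from 85473890 to 85477273 in GRCm38 (mm10) with 4 exon blocks. Its log2 values were 13.74, 13.78 and 13.93 in Pers1 libraries and 13.84, 14.18 and 14.16 in Pers2 libraries. They were 15.45, 15.41 and 15.57 in PAt and 15.25, 15.30 and 15.41 in Arrested libraries. Timer-negative cells had 14.99, 15.11 and 15.09 in Tnaive and 14.77, 14.78 and 14.54 in Teff libraries. The populations were therefore ordered PAt, Arrested, Tnaive, Teff, Pers2 and Pers1, and only the libraries of Pers2 and Pers1 overlapped with their neighbours in that order. Fos in persistent cells differed from PAt and Arrested cells by -1.46 on the log2 scale (standard error 0.06, limma adjusted p = 5.55e-15). Against Teff cells the fold change was -0.76 (standard error 0.07, limma adjusted p = 9.13e-09), below 1 in size, with no overlap of libraries.

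Fosb (chromosome 7, 19302696 to 19310051) encodes a close relative of Fos. It had log2 values of 11.65, 12.17 and 12.27 in Pers1, then 11.84, 12.56 and 12.54 in Pers2, 13.57, 13.97 and 14.01 in PAt, and 13.42, 13.60 and 13.65 in Arrested libraries. In Tnaive libraries it was 12.29, 12.92 and 12.59, and in Teff libraries 13.18, 13.49 and 13.26. Unlike Fos, Fosb thus had Teff libraries above Tnaive libraries, without overlap, and Tnaive libraries overlapping those of Pers2. Fosb in persistent cells differed from PAt and Arrested cells by -1.53 (standard error 0.13, limma adjusted p = 9.06e-10) and from Teff cells by -1.14 (standard error 0.16, limma adjusted p = 2.56e-06), on the log2 scale, and the latter was -0.99, inside the threshold, without the replicate 1 libraries of every population. PAt and Arrested cells exceeded Tnaive cells by 1.11 (standard error 0.16, limma adjusted p = 4.67e-06), the only member called in that comparison (7.9% of all genes). Without Tnaive replicate 1 that difference was 0.95, inside the threshold.

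Jun (chromosome 4, 95049034 to 95052222, a gene of 1 exon) encodes c-Jun, a partner of Fos and Batf proteins. Its log2 values were 11.83, 12.21 and 12.59 in Pers1, then 11.85, 12.36 and 12.60 in Pers2, 14.08, 14.20 and 14.66 in PAt, and 14.12, 14.47 and 14.46 in Arrested libraries. Tnaive libraries had 14.34, 14.64 and 14.58, and Teff libraries 13.34, 13.36 and 13.58. Tnaive, PAt and Arrested libraries overlapped at the top, Teff libraries lay below all of them, and the persistent libraries lay lower still. Persistent cells differed from PAt and Arrested cells in Jun by -2.09 (standard error 0.13, limma adjusted p = 5.16e-12) and from Teff cells by -1.19 (standard error 0.16, limma adjusted p = 1.29e-06). An antisense gene, Junos, shares 232 bp of exon sequence with Jun and is not a row of the table, and the sources used here do not state whether reads were counted by strand.

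Junb (chromosome 8, 84974484 to 84978718) was less even between replicates. It had 14.73, 14.44 and 14.15 in Pers1, then 14.80, 14.83 and 14.38 in Pers2, 15.63, 15.32 and 15.38 in PAt, and 16.03, 15.71 and 15.21 in Arrested libraries. Tnaive libraries had 15.93, 15.62 and 15.13, and Teff libraries had 15.36, 14.45 and 14.48. All 6 persistent libraries lay below all PAt and Arrested libraries, as was so for 21.8% of all genes, while 1 of the 3 Teff libraries reached the PAt range. On the log2 scale, Junb in persistent cells differed from the latter by -0.99 (standard error 0.16, limma adjusted p = 1.4e-05). Leaving out 1 library at a time, it passed the threshold in 6 of 12 fits, with -1.07 without Pers1 replicate 1, -1.03 without Pers2 replicate 1 or Pers2 replicate 2, -1.02 without PAt replicate 2, -1.01 without PAt replicate 3 and -1.10 without Arrested replicate 3. Against Teff it was -0.21 (95% interval -0.62 to 0.21, limma adjusted p = 0.39), and 0.09 without Teff replicate 1. Junb shares 173 bp of exon sequence with Prdx2 on the opposite strand, whose persistent-cell value differed by 0.44, in the other direction.

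Jund (chromosome 8, 70698949 to 70700616) encodes the Jun protein that resting cells are known to hold. Its log2 values ranged from 13.04 to 13.42 in the persistent libraries and from 12.87 to 13.75 in PAt and Arrested libraries, and the populations overlapped. The fold change was -0.13 (95% interval -0.39 to 0.13, limma adjusted p = 0.367). In Teff libraries it was 12.98, 12.07 and 12.94, below the Tnaive values of 13.46, 13.31 and 13.27, and replicate 2 stood apart from the others. Gm11175, an antisense gene that is not a row of the table, shares 877 bp of its exon sequence. Fosl2 (chromosome 5, 32135801 to 32157842), the gene of Fra-2, ranged from 7.87 to 8.54 in the persistent libraries and from 7.40 to 8.34 in PAt and Arrested libraries. Its fold change was 0.13 (95% interval -0.14 to 0.39, limma adjusted p = 0.384), and every neighbouring pair in the order of its 6 populations overlapped.

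Batf lies on chromosome 12 from 85686669 to 85709087. Its log2 values were 11.68, 11.38 and 11.59 in Pers1, then 11.72, 11.73 and 11.74 in Pers2, 10.50, 10.22 and 10.40 in PAt, and 10.58, 10.24 and 10.23 in Arrested libraries. Teff libraries had 10.85, 10.57 and 10.70, and Tnaive libraries 9.56, 9.41 and 9.67. The order was Pers2, Pers1, Teff, PAt, Arrested and Tnaive, and of these neighbours only PAt and Arrested libraries overlapped. Teff and Arrested, which are not neighbours in it, also overlapped, as Arrested replicate 1 (10.58) lay above Teff replicate 2 (10.57). Persistent cells exceeded PAt and Arrested cells in Batf by 1.28 on the log2 scale (standard error 0.07, limma adjusted p = 9.99e-13). Against Teff it was 0.93 (standard error 0.09, limma adjusted p = 6.75e-09), inside the threshold, and 1.01 without Teff replicate 1. PAt and Arrested cells in turn exceeded Tnaive cells by 0.81 (standard error 0.09, limma adjusted p = 6.63e-08), also inside it.

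Batf3 (chromosome 1, 191097847 to 191108945), known for its part in dendritic cells and activated T cells, was at the foot of the scale. In 6 of the 18 libraries it was within 0.01 of its lowest value of 2.25. Teff libraries had 2.88, 2.73 and 2.67, above the highest value of any other library (2.43). With no filter on low values, the log2 fold change of Teff against Tnaive was 0.50 (standard error 0.06, limma adjusted p = 3.77e-07), on a scale that may draw changes of such low genes towards 0. The summed level of 6 conventional dendritic cell markers was 10.34 to 10.61 in Teff libraries and 6.78 to 7.25 in the other 15. Its part in the Batf3 values was not tested.

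Bach2 spans 32238804 to 32586108 on chromosome 4. Its log2 values were 10.03, 9.92 and 9.85 in Pers1, then 9.91, 10.01 and 9.69 in Pers2, 11.98, 12.04 and 11.96 in PAt, and 12.01, 12.06 and 11.94 in Arrested libraries. Tnaive libraries had 12.64, 12.65 and 12.51, and Teff libraries 11.11, 11.05 and 10.90. The populations fell on 4 levels without overlap, with Tnaive at the top, then PAt and Arrested, then Teff, then Pers1 and Pers2. The fold change against PAt and Arrested was -2.10 (95% interval -2.21 to -1.99), and in the 3 replicate numbers taken singly the difference was -2.03, -2.09 and -2.18. The paper names Bach2 for these samples, so its direction here is not independent evidence.

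B cells also express Bach2, and the summed level of 6 B-cell markers was 11.20 to 11.41 in the persistent libraries and 11.75 to 12.34 in PAt and Arrested libraries. In Tnaive libraries, where Bach2 was highest, it was 9.79 to 10.33, and in Teff libraries 12.68 to 13.21. The part of these markers in the Bach2 values was not tested. Bach2os, an antisense gene that shares 537 bp of exon sequence with Bach2, was lower in the persistent populations as well, at -1.67 on the log2 scale (standard error 0.08, limma adjusted p = 1.62e-13). Without knowledge of the strand setting, reads from Bach2 and Bach2os over that stretch cannot be told apart.

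Bach1 (chromosome 16, 87698945 to 87733346), known for repressing haem oxygenase and other oxidative stress genes, moved little. It ranged from 9.36 to 9.55 in the persistent libraries and from 9.65 to 9.93 in PAt and Arrested libraries, without overlap. The fold change was -0.35 (standard error 0.06, limma adjusted p = 2.6e-05), inside the threshold. Tnaive libraries had 10.22, 10.26 and 10.22, above all others, and the Teff fold change against them was -0.70 (standard error 0.09, limma adjusted p = 4.56e-07).

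**Figure D2:**
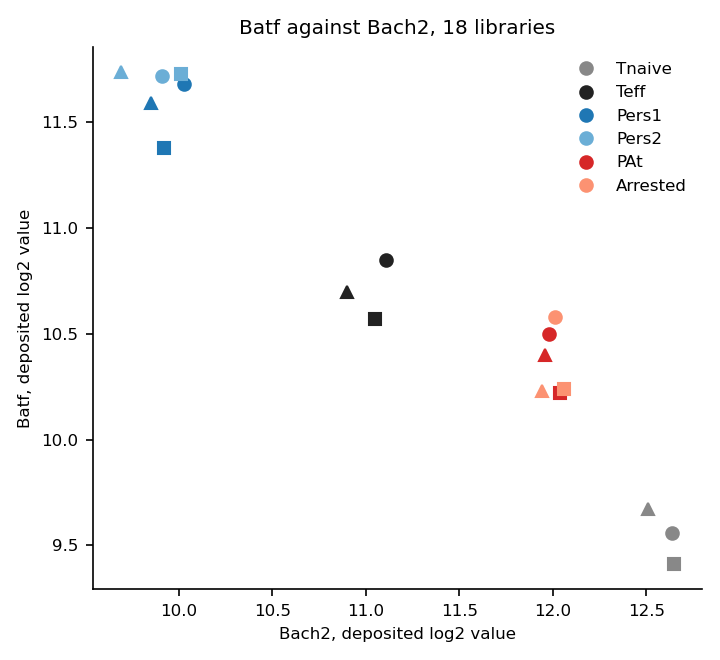
Deposited log2 value of Batf (y axis) against that of Bach2 (x axis) in each of the 18 libraries, with colour for the population and circle, square and triangle for replicates 1, 2 and 3. Persistent libraries sit at the upper left with Batf from 11.38 to 11.74, and Tnaive libraries at the lower right with Bach2 from 12.51 to 12.65.

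The plot of Batf against Bach2 places the libraries in 4 separate clusters, so no correlation is given for it. To compare levels between genes, exonic length in kb (GENCODE vM21, all exons of a gene joined) was taken out of the deposited values on the log2 scale. On that scale the Batf level minus the Bach2 level was -0.42 to -0.01 in Tnaive, 1.00 to 1.33 in PAt and 1.00 to 1.39 in Arrested libraries. It was 2.34 to 2.62 in Teff, 4.28 to 4.57 in Pers1 and 4.54 to 4.87 in Pers2 libraries. Batf and Bach2 were thus at near-equal levels per kb in Tnaive cells only, and apart by over 4 on the log2 scale in the persistent populations.

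Averaged over the 18 libraries, the level per kb was highest for Junb (13.89 on the log2 scale), followed by Fos (13.51), Jund (12.42) and Jun (11.84). Fosb (10.30) and Batf (10.22) came next, then Bach2 (7.92), Bach1 (7.09), Fosl2 (4.82) and Batf3 (1.70). Of the 14756 genes with a length, 0.468% lay above Junb and 0.637% above Fos, whereas 69.1% lay above Fosl2. In Pers1 cells the level of Fos per kb was 12.58 against 11.06 for Batf, so Fos remained the more abundant where it was lowest. In Pers1 the Jun level per kb, 10.54, was below that of Batf, and in PAt cells it was above it (12.64 against 9.88).

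Within each pair of populations sorted by Timer fluorescence, no member was called. In limma, 0 of 9 members passed between Pers2 and Pers1, where 0.19% of all genes were called, and 0 of 9 between Arrested and PAt cells (0.121%). At an unadjusted p under 0.05, Fos differed in the first comparison, at a log2 fold change of 0.25 (limma adjusted p = 0.0604), and Jund in the second, at 0.45 (limma adjusted p = 0.16). For Bach2, Pers2 minus Pers1 was -0.06 (95% interval -0.22 to 0.09) and Arrested minus PAt was 0.01 (-0.15 to 0.17). For Jun these differences were 0.06 (95% interval -0.32 to 0.43) and 0.03 (-0.34 to 0.41), wider because its replicates varied more.

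Teff and Tnaive cells, both Timer-negative, differ by CD44 and allow the same genes to be followed in conventional cells. Of the 9 members, Batf was called higher and Jun and Bach2 lower, where 11.2% of all genes were called, 8.88% higher and 2.28% lower. Teff cells exceeded Tnaive cells in Batf by 1.16 on the log2 scale (standard error 0.10, limma adjusted p = 1.99e-09). For Bach2 the fold change was -1.58 (standard error 0.08, limma adjusted p = 1.22e-13), and for Jun it was -1.09 (standard error 0.18, limma adjusted p = 2.34e-05), or -0.99 with quantile normalisation, inside the threshold. Fos differed by -0.37 (standard error 0.08, limma adjusted p = 0.000661) and Fosb by 0.71 (standard error 0.18, limma adjusted p = 0.0021), both inside the threshold. Junb was at -0.80 (standard error 0.23, limma adjusted p = 0.00512), at -1.10 without Teff replicate 1, and at -1.02 without Tnaive replicate 3. The sets of B-cell, myeloid and dendritic cell markers that were higher in Teff than in Tnaive libraries move with this comparison, and their part in it was not tested.

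**Figure D3:**
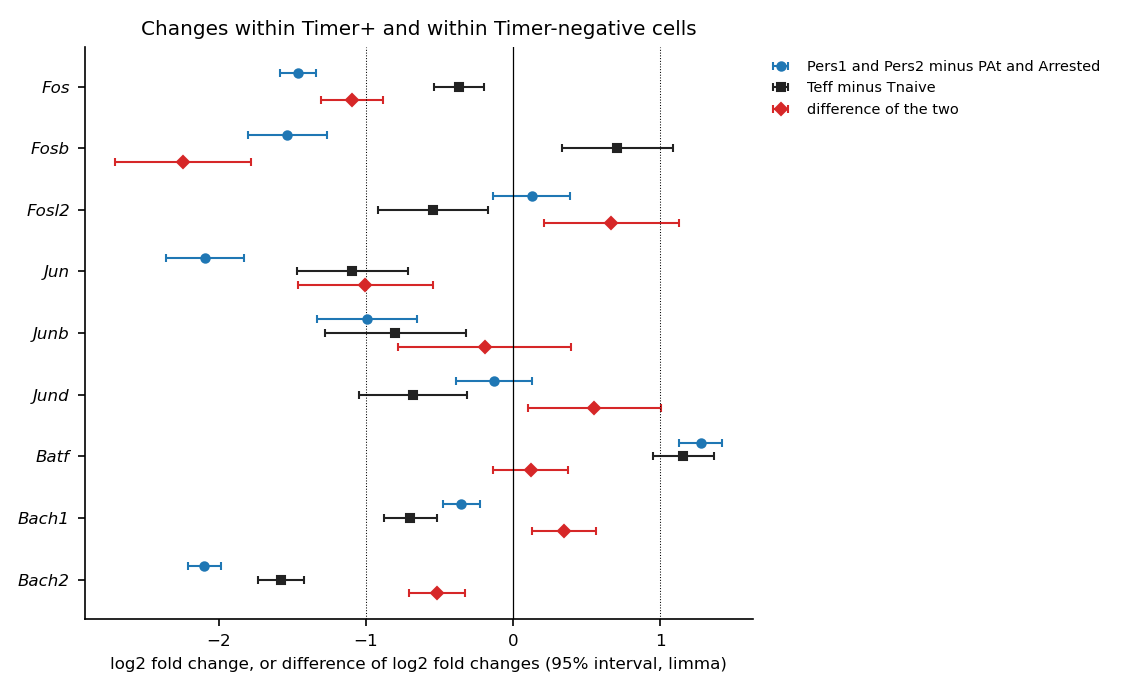
Log2 fold changes with 95% intervals from limma (x axis) for the 9 tested members (y axis). Circles give Pers1 and Pers2 minus PAt and Arrested, squares Teff minus Tnaive, and diamonds the first minus the second. Dotted lines mark the threshold of 1. For Fosb the circle lies at -1.53 and the square at 0.71, whereas for Batf both lie to the right, at 1.28 and 1.16.

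These comparisons share no libraries, so the difference between the change in Timer+ cells (Pers1 and Pers2 minus PAt and Arrested) and the change in Timer-negative cells (Teff minus Tnaive) could be tested in the same model. Of the 9 members, 3 differed past the threshold, all lower, where 6.9% of all genes were called lower and 8.42% either way. Fosb had a difference of -2.24 on the log2 scale (standard error 0.22, limma adjusted p = 3.62e-08), lower in the persistent populations yet with Teff libraries above Tnaive libraries. For Fos the difference was -1.09 (standard error 0.10, limma adjusted p = 1.23e-08), and it was -0.97, inside the threshold, without the replicate 1 libraries of every population. For Jun it was -1.003 (standard error 0.22, limma adjusted p = 0.000744) and lay on the threshold. Batf had a difference of 0.12 (95% interval -0.13 to 0.37, limma adjusted p = 0.443), with changes of 1.28 and 1.16. For Bach2 it was -0.52 (standard error 0.09, limma adjusted p = 8.48e-05), inside the threshold, with the larger decrease in Timer+ cells. For Junb it was -0.19 (95% interval -0.78 to 0.39). The other members had positive differences inside the threshold, at 0.67 for Fosl2 (limma adjusted p = 0.0158), 0.55 for Jund (limma adjusted p = 0.0399) and 0.35 for Bach1 (limma adjusted p = 0.00917). Markers of other cells, high in Teff libraries, were called lower in this test too. They were 6 of 6 for B cells, 5 of 6 for conventional and 4 of 5 for plasmacytoid dendritic cells, and 2 of 2 for CD8 T cells. Of 5 macrophage or monocyte markers, 4 were called lower and 1 higher. The part of these markers in the differences was not tested.

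Leaving out 1 library at a time, the call for Jun in that test was lost in 7 of 18 fits, with -0.91 without Tnaive replicate 1 or Pers1 replicate 1, -0.93 without Teff replicate 3, -0.90 without Pers2 replicate 1, -0.92 without PAt replicate 3, -0.97 without Arrested replicate 2 and -0.98 without Arrested replicate 3. It was -0.99 when libraries were centred on their median. Without the replicate 1 libraries of every population Jun was at -0.87, and 1 member, Fosb, remained called in this test. Fosb was also called in each of the 18 fits.

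PAt and Arrested cells can also be set beside Teff cells, although this uses the same Teff libraries as the comparison above. No member passed the threshold in limma (0 of 9, where 6.88% of all genes were called), but 8 of 9 had an adjusted p under 0.05, as 52.7% of all genes did, and 7 of these were higher in PAt and Arrested cells. The largest differences were those of Bach2 (0.98, standard error 0.07) and Jun (0.91, standard error 0.16), and the Batf difference was -0.34 (standard error 0.09). Without Teff replicate 1, Bach2 (1.02) and Junb (1.08) passed the threshold. Against Teff, the persistent populations had 3 members called, all lower (4.03% of all genes, and 8.31% either way), which were Fosb, Jun and Bach2. Without the replicate 1 libraries of every population Fosb was at -0.99 there, and 2 members were called. The Bach2 difference there was -1.12 (standard error 0.07).

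Same-numbered libraries shared part of their deviation in several AP-1 genes, and the number was tested in a model with both population and replicate number. Replicate 1 had the lowest value of Fosb and of Jun in 6 of 6 populations, the highest value of Fosl2 in 6 of 6 and the highest value of Junb in 5 of 6. In limma's moderated F test, chosen after these values were seen, the replicate number had an adjusted p of 0.000235 for Fosb, 0.000335 for Jun, 0.00024 for Junb and 0.0439 for Fosl2. The corresponding p was 0.0341 for Batf, 0.0311 for Bach2, 0.367 for Fos, 0.653 for Bach1 and 0.754 for Jund. That made 6 of 9 members under 0.05, where 3.84% of all genes were. Replicate 3 exceeded replicate 1 by 0.49 for Jun and by 0.39 for Fosb on the log2 scale, and Junb was lower in replicate 3 by -0.63. The differences were larger for the heat shock genes Hspa1a and Hspa1b, at 2.10 and 1.99 between replicates 3 and 1 (limma adjusted p = 1.95e-10 for each), and Dnajb1 differed by 0.55 (limma adjusted p = 6.99e-07). Replicate 1 had the lowest value of these 3 genes in 6 of 6 populations, as for Fosb and Jun. Hsph1 went the other way, at -0.27 (limma adjusted p = 0.000138), with replicate 1 lowest in 0 of 6 populations. Hsp90aa1 was at 0.24 (limma adjusted p = 0.042). For Hspa8, Hsp90ab1 and Hspe1 the limma adjusted p was 0.257, 0.0809 and 0.882. The part of the heat shock genes in the replicate differences of the members was not tested.

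Within each replicate number the difference of persistent cells from PAt and Arrested cells kept its sign for Jun, Fosb, Junb and Batf. For Jun it was -2.26, -2.05 and -1.97 in numbers 1, 2 and 3, for Fosb -1.75, -1.42 and -1.42, and for Junb -1.07, -0.88 and -1.03. Batf gave 1.16, 1.32 and 1.35. In a fit without the replicate 1 libraries of every population, added after seeing the data, the same 5 members were called in this comparison.

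**Figure D4:**
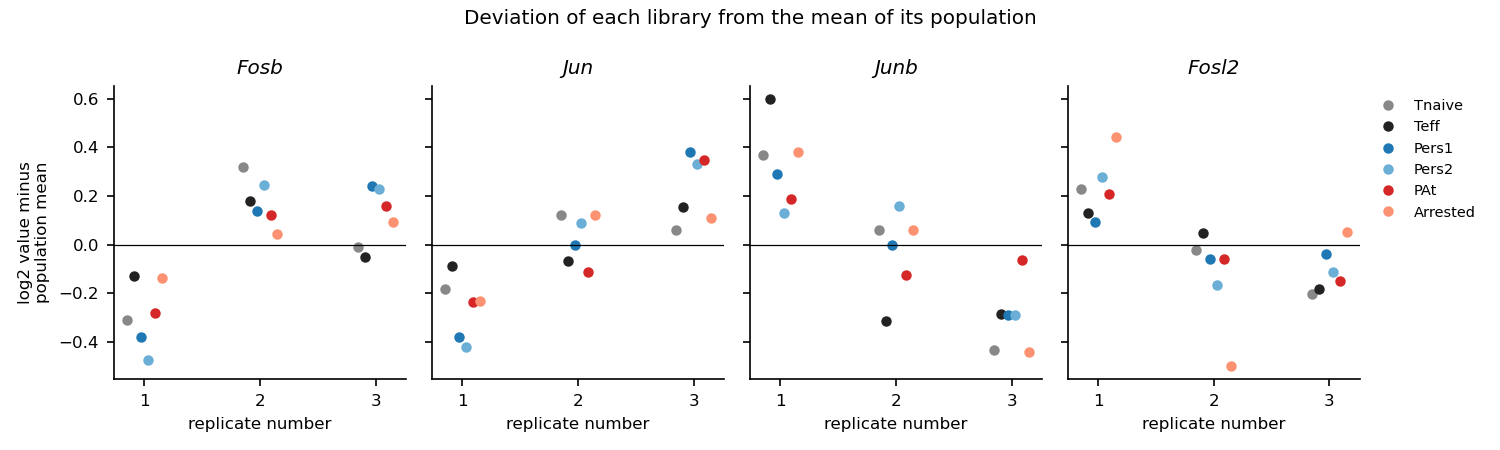
Log2 value of each library minus the mean of its population (y axis) by replicate number (x axis) for Fosb, Jun, Junb and Fosl2, with 1 point per library, coloured by population and set side by side. All 6 points of replicate 1 lie below 0 for Fosb and Jun and above 0 for Junb and Fosl2.

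Other genes of the pathway were followed in lists. Among 12 tested bZIP genes outside the membership, which include small Maf and Atf genes, 2 were called higher and 0 lower in limma in persistent cells (against PAt and Arrested), where 7.51% of all genes were called. They were Maf (2.19, standard error 0.07), the gene of c-Maf, and Mafg (1.07, standard error 0.07), a small Maf protein that can pair with Bach proteins. The other small Maf genes did not follow Mafg. Mafk was at -0.42 (limma adjusted p = 0.000783), inside the threshold, and Maff at 0.02 (limma adjusted p = 0.896). Maf had log2 values of 13.77 to 13.98 in the persistent libraries, 11.30 to 11.85 in PAt and Arrested libraries and 7.75 to 8.14 in Tnaive libraries. Atf3, an AP-1 partner induced by stress, differed there by 0.06 (limma adjusted p = 0.687), and between Teff and Tnaive cells it was higher by 2.09 (standard error 0.19, limma adjusted p = 4.27e-09). The median fold change of the 12 genes was -0.01, equal to that of all genes.

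Of 19 MAP kinase pathway genes, 1 was called, where 7.51% of all genes were. It was Map2k3 (1.26, standard error 0.06), a kinase upstream of p38, and the median of the 19 was -0.02. Of 7 partners at Batf and Irf elements, 1, Irf4, was called higher (1.43), where 4.74% of all genes were, with a median of 0.29. The paper names Irf4 too, so its direction is not independent evidence. In the test of Timer+ against Timer-negative changes, 3 of the 7 partners and 3 of the 12 bZIP genes were called lower. Of both lists 0 were called higher, and 6.9% of all genes were called lower. Among them were Irf4 (-1.95) and Maf (-3.28), their Teff increases over Tnaive cells being 3.37 and 5.47. The others were Irf8 (-3.44), Nfatc1 (-1.19), Atf3 (-2.03) and Jdp2 (-1.10). Most markers of B cells, myeloid cells and dendritic cells were called lower in that test as well, and their part was not tested.

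Of 10 effector genes on which Bach2 is known to act, 8 were tested. In the persistent populations 6 were called higher and 0 lower, where 4.74% and 2.77% of all genes were, with a median fold change of 1.75. Those called included Gzmb (5.28), Prdm1 (2.97), the gene of the repressor Blimp-1, Ccr4 (2.71) and Klrg1 (2.04). The list was drawn up with results of these samples known, and the paper names Gzmb and Ccr4 for them, so it is not independent evidence of its direction. Prdm1 was 12.29 to 12.66 in persistent libraries, 8.82 to 8.86 in Teff libraries and 8.78 to 8.79 in Tnaive libraries, and its Teff fold change against Tnaive was 0.06 (95% interval -0.11 to 0.22) where that of Bach2 was -1.58. Of 8 genes controlled by Bach1 and Nrf2, 1, Nqo1, was called higher (1.09, standard error 0.08), where 4.74% of all genes were. Its values were low, from 4.31 to 5.98. Hmox1, at 0.996 (standard error 0.09), was just inside the threshold, and the median of the 8 was 0.42. At an adjusted p under 0.05 of any size, 6 were higher and 1 lower, as 35.9% and 35.1% of all genes were. The lower gene was Gclc (-0.30, limma adjusted p = 1.71e-06). Nfe2l2, the gene of Nrf2, was at -0.73 (limma adjusted p = 7.9e-11), inside the threshold.

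Immediate early genes other than AP-1 followed Fos and Jun in part. Of 17 such genes, 3 were called lower and 0 higher in the persistent populations, where 2.77% and 4.74% of all genes were. At an adjusted p under 0.05 of any size, 14 were lower and 2 higher, as 35.1% and 35.9% of all genes were. The called genes were Myc (-1.68, standard error 0.05), Klf4 (-1.64, standard error 0.09) and Klf2 (-1.11, standard error 0.09). The median over the 17 was -0.45. Heat shock genes, which like AP-1 genes can respond to the handling of tissue, changed in both directions.

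Of the 8 heat shock genes, Hspa1a (-1.05, standard error 0.48, limma adjusted p = 0.0564), Hspa1b (-1.13, standard error 0.45, limma adjusted p = 0.0309) and Dnajb1 (-0.83, standard error 0.13, limma adjusted p = 1.16e-05) had negative log2 fold changes in persistent cells. Only Hspa1b was called. The other 5 had positive values, from 0.09 for Hsp90ab1 to 0.86 for Hsph1, and none was called. Within replicate numbers 1, 2 and 3 the difference was -1.10, -0.98 and -1.06 for Hspa1a, -1.19, -1.09 and -1.12 for Hspa1b, and -0.74, -0.87 and -0.88 for Dnajb1. With the replicate block, Hspa1a (standard error 0.10, limma adjusted p = 8.14e-09) and Hspa1b (standard error 0.09, limma adjusted p = 7.1e-10) were both called lower. Hspa1a and Hspa1b are near-identical copies whose reads the counting may have shared, so they are not separate evidence. Hspa1a, Hspa1b and Dnajb1 thus moved in the direction of Fos, Fosb and Jun in every replicate number. Hsph1 moved the other way in each, at 0.86, 0.84 and 0.89, as did Hsp90aa1, at 0.60, 0.41 and 0.56. Hspa8 and Hsp90ab1 were also positive in each. The part of handling in the AP-1 differences was not tested.

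**Figure D5:**
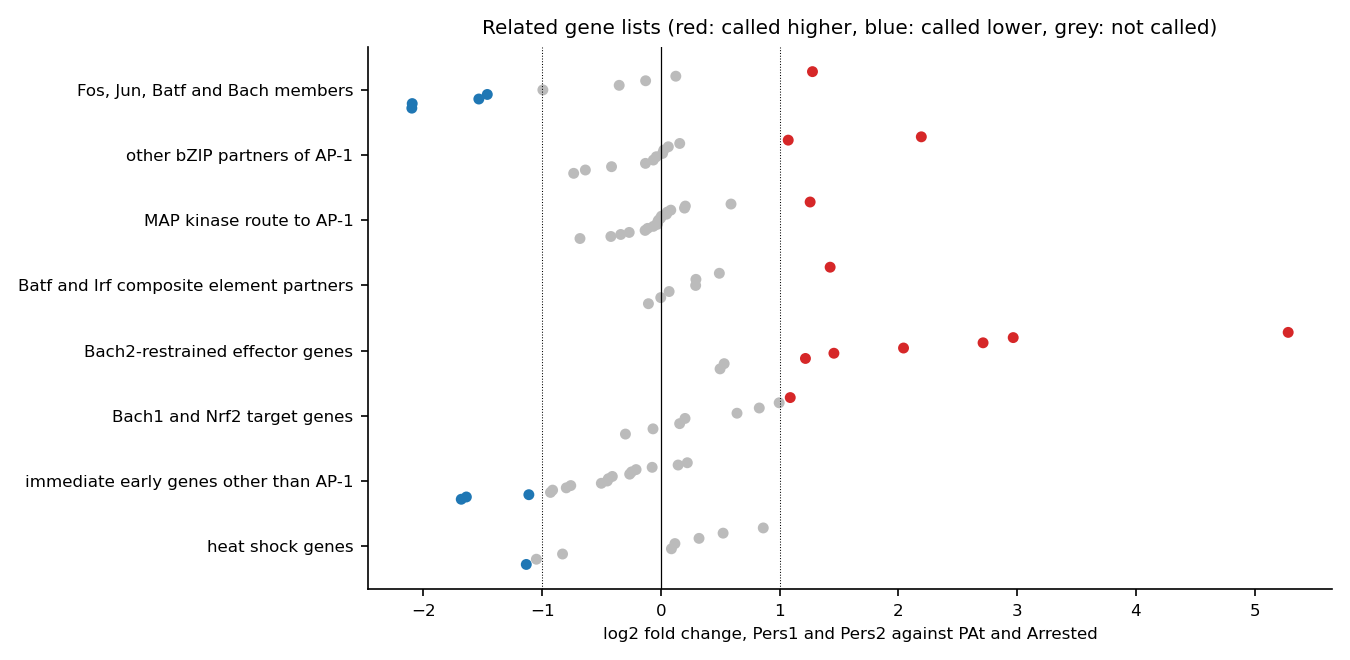
Log2 fold change of the persistent populations against PAt and Arrested cells (x axis) for the tested members and 7 related lists (y axis), with 1 point per gene. Red points were called higher, blue points lower and grey points not called, and dotted lines mark the threshold of 1. Among the effector genes linked to Bach2, 6 of 8 points are red and none is blue, where 4.74% of all genes were called higher and 2.77% lower.

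The genes whose deposited values were most like those of a member over the 18 libraries were listed by Pearson's r, as a description. The points share libraries and fall into clusters by population, so high values of r are common. For Batf they were Racgap1 (r = 0.992), Cdca8 (0.990) and Ankle1 (0.989), and for Bach2 they were 2410002F23Rik (0.993), Mdn1 (0.991) and Snapc4 (0.991). Fos was most like Peg13 (0.989), Tspyl2 (0.989) and Tom1l2 (0.986), and Jun most like Fbxl12 (0.985), Acp6 (0.979) and Vps11 (0.978). For Fosb the highest r was with Rhob (0.941), Apobec1 (0.932) and Usp35 (0.922), and for Junb with Setd1b (0.963), Prickle1 (0.954) and Kdm6b (0.947). Bach1 was most like Eef1b2 (0.950), Rps3 (0.950) and Supv3l1 (0.949), and Jund most like Rnaseh2c (0.934), Zfp622 (0.885) and Anapc11 (0.864). Fosl2 had the weakest matches, with Tagln (0.807), Ubac1 (0.758) and Shq1 (0.754).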

How the data were processed

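RNA was sequenced from 18 libraries of 6 sorted populations with 3 replicates each. Per the labels and the paper, TopHat2 2.0.9 was used by the authors to place 100-bp read pairs from stranded mRNA libraries on mm10, followed by DESeq2. The values that the authors deposited are log2 of normalised counts for 15402 genes, from -0.02 to 18.89. The values look like those of a regularised log transform (few below 0 and low genes nearly flat), which would draw changes of genes with few reads towards 0, but the transform was inferred and not taken from a stated method. The annotation and the strand setting of the counting are not given in the sources used here. Depth is unknown, and precision rests on the spread between replicates.

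The values were used as deposited. Genes with a mean of at least 3 (13190) were tested in 1 model of the 6 populations with limma 3.58.1 in R 4.3.3, with a trended variance prior, 12 residual degrees of freedom and Benjamini-Hochberg adjustment over all tested genes. On simulated data of the main comparison with 200 of 13190 genes changed by 2 on the log2 scale, 200 were recovered with 0 false calls. The simulated effect was well past the threshold of 1, and the noise was independent between libraries. It therefore checks the code only, not calls near the threshold or deviations shared by replicate number. The members and lists were chosen with earlier results of these data known. All members are named, and of each list at most the 4 called genes of largest change in the main comparison. Other list genes were named after their values were seen. They are Irf4 and Maf in the further tests, Atf3, Irf8, Nfatc1, Jdp2, Mafk, Maff, Hmox1, Gclc and Nfe2l2. So were the heat shock genes and the overlapping genes Prdx2 and Bach2os. The cell markers Cd4, Cd8a, Ccr9, Bst2, Siglech, Itgam, Eomes and Klrb1c were also named in this way. Positions and exonic lengths came from GENCODE vM21 (GRCm38), and promoters from RefSeq.

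The series description has nodes pooled by biological replicate before sorting, so equal replicate numbers were read as the same pool, which no label states outright. Deviations from population means had a median correlation of 0.166 over 45 same-numbered pairs (-0.206 to 0.436) and of -0.0642 over 90 others. The main model had no replicate block, as the study's methods name none. Alternatives changed the filter, the libraries in the fit, the threshold, the scaling and the prior.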

Additional observations from a re-analysis of the deposited data

Results flagged for a closer look

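The change from PAt and Arrested cells to the persistent populations differed from the change from Tnaive to Teff cells, by the test of the difference itself, for 3 members. The difference was -2.24 on the log2 scale for Fosb, -1.09 for Fos and -1.003 for Jun. Without the replicate 1 libraries of every population, Fos had -0.97 and Jun -0.87, and 1 member, Fosb, passed the threshold. Most markers of other cells, such as 6 of 6 for B cells, were also called lower in this test. Their part in the differences was not tested.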

How the results depend on the processing

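The number of members called (5 in persistent against PAt and Arrested cells) was also 5 with no filter on low values, with a mean of at least 5, with only the compared populations in the fit, without the variance trend, with libraries centred on their median and with quantile normalisation. With the replicate block it was 5 as well (992 genes in all), and the block changed no call of a member in any comparison. Without the threshold on the fold change, 9 members passed between Teff and Tnaive, and 6 between the persistent populations and Teff. There were 8 between PAt and Arrested cells and Teff (52.7% of all genes), and 6 between PAt and Arrested cells and Tnaive. The test of Timer+ against Timer-negative changes had 7. In persistent against PAt and Arrested cells, 1 member was higher and 6 lower, as were 35.9% and 35.1% of all genes. The share of all genes is not given for the other comparisons, so these counts are not read as results about the members. With 1 library left out at a time, the counts were 5 to 6 for the persistent populations against PAt and Arrested, 3 to 4 for Teff against Tnaive and for the persistent populations against Teff, 0 to 2 for PAt and Arrested against Teff, 0 to 1 against Tnaive, and 2 to 3 for the test of Timer+ against Timer-negative changes. Without replicate 1 of every population, added after seeing the data, these last counts were 1 (Bach2, 1.02) against Teff and 1 in the test of the changes, and Fosb against Teff, at -0.99 in the persistent populations, fell inside the threshold.

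Signs turned in the alternatives run only for members that were not called in that comparison. These were Junb in PAt and Arrested cells against Tnaive (-0.01, and 0.19 with quantile normalisation), Fosl2 in Pers1 against PAt (-0.11) and Jund in Pers1 and in Pers2 against PAt (0.07 and 0.13). In fits that each left out 1 library, 33 of 675 values turned sign, given here with their range over the fits. In PAt and Arrested against Tnaive these were Junb (-0.23 to 0.17) and Jund (-0.10 to 0.05). In the test of Timer+ against Timer-negative changes these were Junb (-0.38 to 0.10). In persistent cells against Teff these were Junb (-0.36 to 0.09). In PAt and Arrested against Teff these were Fosl2 (-0.09 to 0.14). In Pers2 against Pers1 these were Jun (-0.13 to 0.27), Bach1 (-0.01 to 0.08), Jund (-0.04 to 0.15) and Bach2 (-0.13 to 0.03). In Arrested against PAt these were Jun (-0.08 to 0.21), Batf (-0.14 to 0.04), Bach1 (-0.12 to 0.03), Bach2 (-0.02 to 0.04) and Fosl2 (-0.36 to 0.10). Without replicate 1 they were Bach2 in Arrested against PAt (-0.00), Fosl2 in PAt and Arrested cells against Teff (-0.08), and Junb (0.03) and Jund (0.00) in PAt and Arrested cells against Tnaive. Over the 6 population means in place of the 18 libraries, 1 of the 3 most alike genes was shared for Fos and Fosb and 0 of 3 for the other tested members. Depth was not analysed, so the low values of Batf3 have no counting interval.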
